A study of Mus musculus with 30 samples.

Results

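Wnt proteins are secreted ligands that bind Frizzled receptors together with the co-receptors Lrp5 and Lrp6, which stabilises beta-catenin and lets it act with the transcription factors Tcf7 and Lef1. Some Wnts act instead through Ror1, Ror2 or Ryk without beta-catenin, and R-spondins, by way of Lgr4, Lgr5 and Lgr6, keep Frizzled and Lrp6 at the cell surface. In bone this pathway is known for promoting osteoblast formation, and osteocytes are a source of its inhibitors. The genes described here are the 45 mouse symbols of these families, of 25520 symbols listed for untreated cells and 25410 listed for the hormone experiment. They were picked by name and not by their values, though with earlier results of these data known. They are 19 Wnt ligands, 4 R-spondins, 3 R-spondin receptors (Lgr4, Lgr5, Lgr6), 10 Frizzled receptors, 3 LRP receptors (Lrp4, Lrp5, Lrp6), 3 alternative receptors (Ror1, Ror2, Ryk), and Axin2, Lef1 and Tcf7. Axin2 is a feedback inhibitor and a common readout of beta-catenin signalling.

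The cells were IDG-SW3, a clonal mouse line of late osteoblasts that becomes osteocyte-like in culture. They were expanded with interferon-gamma at a lower temperature and moved, without it, to osteogenic medium with ascorbic acid and beta-glycerophosphate. Untreated cells were taken on day 3 and then on 5 later days, the days 7, 14, 21, 28 and 35 of culture, with 3 libraries a day and 18 in all. In the hormone experiment, cells at day 35 or day 3 received 100 nM 1,25(OH)2D3 (1,25D3, the active vitamin D hormone) or its ethanol vehicle for the last 24 h before RNA isolation, with 3 libraries in each of the 4 groups. The labels call the replicates biological but name no separate cultures, so p-values measure the spread between these libraries.

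The experiments used different library kits and units, and levels are compared within each only. Untreated values are RPKM, of which ribosomal RNA rows made up 71.6% to 88.4% in each library, and they were rescaled so that the typical gene is level across libraries. Hormone values are counts, 22062900 to 54325500 in a library, printed as CPM (counts scaled to a common library size) after TMM scaling. Osteoblast markers summed to 109.6 RPKM or more in each untreated library and 5038 CPM or more in each hormone library. Of the 9 markers, 6 averaged at least 1 RPKM on days 3, 7 and 14 and 8 on days 21, 28 and 35. Runx2 stayed under 0.5 RPKM in every library of days 3, 7, 14 and 21, as did Ibsp on day 14. Pth1r stayed under 0.5 CPM in vehicle cells at day 3. Of 6 osteocyte markers none averaged 1 RPKM in untreated cells on any day, while the summed level was at least 427 CPM in vehicle cells at day 35 and at most 133 CPM in vehicle cells at day 3. Endothelial markers summed to at most 0.126 RPKM and 8.21 CPM. Chondrocyte markers were not low, with 282 to 397 CPM in vehicle cells at day 35 and 63.35 to 152.5 CPM at day 3. They summed to 15.6 to 25.1 RPKM in untreated cells on day 35. Macrophage, neural and epithelial markers summed to at most 40.9, 29.4 and 12.7 CPM. The libraries of 1,25D3 at day 3 stood apart: genes for odorant receptors, a sensory family with no known use in bone, held 0.0495% to 0.0726% of their reads against 0.00397% to 0.00547% in vehicle at day 3. In 1,25D3 replicate 2 at day 35 the share was 0.0418%. In 1,25D3 replicate 3 at day 3 adipocyte markers summed to 162 CPM, against at most 43 CPM in any other hormone library. In bulk RNA, fewer cells of a type and less RNA per cell cannot be told apart.

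In untreated cells 15 of the 45 genes reached 1 RPKM in 3 libraries and were tested, 4 ligands, 2 R-spondins, 6 Frizzleds, Lrp6, Ror2 and Tcf7. At an adjusted p below 0.05 (limma, Benjamini-Hochberg over 9621 genes) 9 were called on day 7, 6 on day 14, 8 on day 21, 8 on day 28 and 9 on day 35, each against day 3. The share called among all genes was 31.4% on day 7 (14.9% higher and 16.5% lower), 38.3% on day 14 (17.6% and 20.7%), 46.5% on day 21 (22.5% and 24%), 50.5% on day 28 (25.5% and 25%) and 55.1% on day 35 (28.1% and 27%). The 9 of 15 members called on day 7 lay above that share, and on the other days the members' share was near it. On day 35, 8 rose and 1 fell, with a median log2 change of 0.68 over the 15 and 0.04 over all genes. These 15 include Tcf7 and Fzd9, which reached 1 RPKM only on late days and so passed the filter through the days on which they were high. With all genes fitted without the filter, 9 members rose and 7 fell on day 35, beside 16.5% of all genes higher and 20.5% lower. Over all days together 10 of 15 were called, beside 57.9% of all genes.

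**Figure D1:**
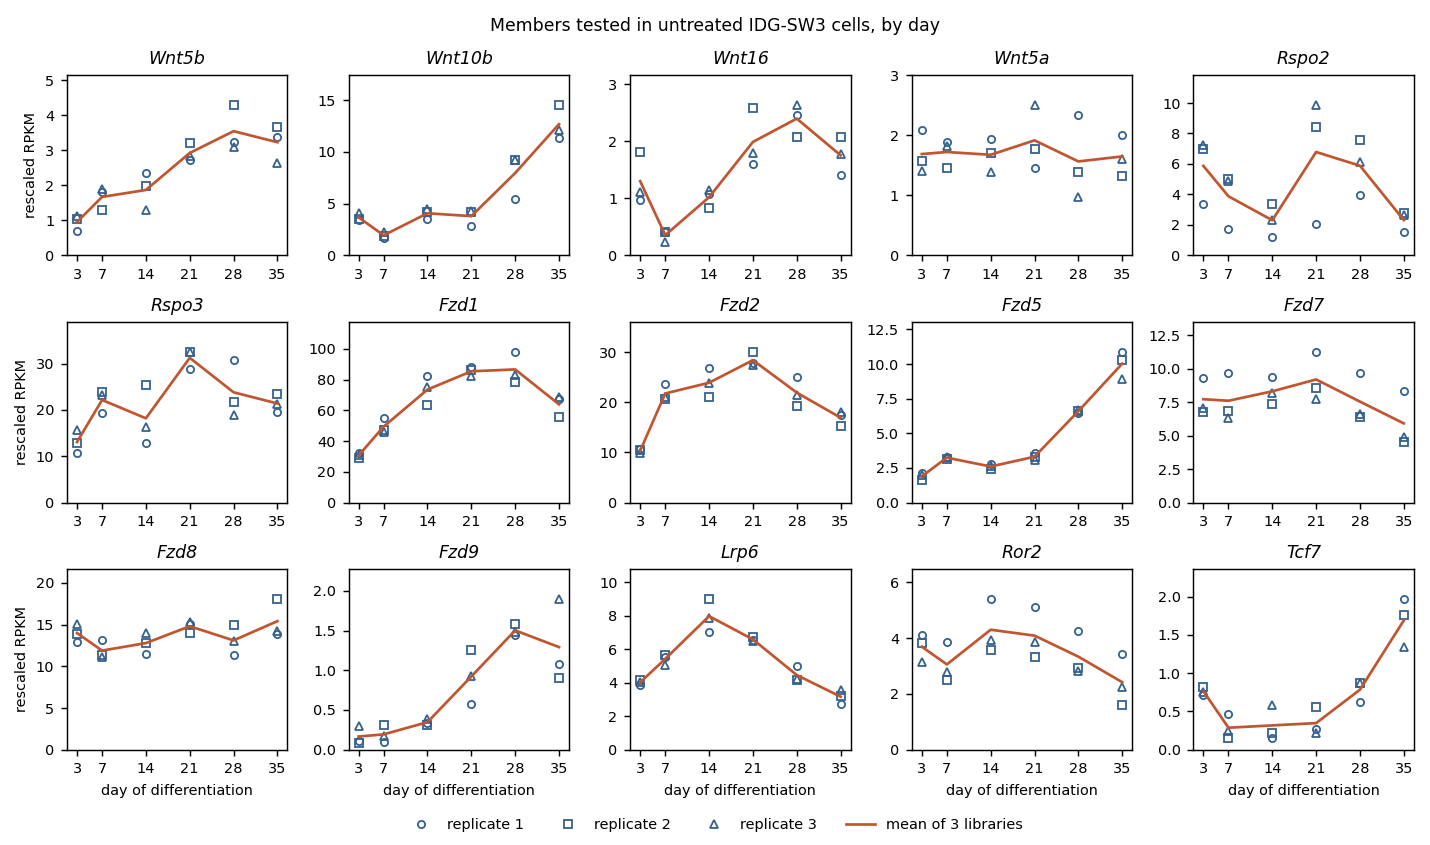
Rescaled RPKM of the 15 tested members in untreated cells by day of differentiation, with 1 marker shape per replicate number and a line through the mean of 3 libraries. Fzd5 and Wnt10b were highest on day 35, while Fzd2 and Lrp6 had their highest means on days 21 and 14.

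Among ligands, Wnt10b and Wnt5b rose late. Wnt10b, which favours osteoblast over adipocyte formation, stood at 3.41, 3.48 and 4.11 RPKM on day 3, 1.66, 1.89 and 2.26 on day 7, 3.50, 4.20 and 4.49 on day 14, 2.86, 4.21 and 4.30 on day 21, 5.41, 9.22 and 9.22 on day 28, and 11.3, 14.6 and 12.1 on day 35. All day 7 libraries lay below and all day 28 and day 35 libraries above those of day 3. The log2 change from day 3 was -0.78 ± 0.20 (SE) on day 7 (limma, adjusted p = 0.00684), 0.99 ± 0.20 on day 28 (adjusted p = 0.00059) and 1.66 ± 0.20 on day 35 (adjusted p = 3.38e-06).

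Wnt5b, a ligand usually placed outside the beta-catenin branch, had 0.685, 1.04 and 1.13 RPKM on day 3, 1.80, 1.31 and 1.90 on day 7, 2.34, 1.98 and 1.28 on day 14, 2.72, 3.22 and 2.84 on day 21, 3.23, 4.30 and 3.11 on day 28, and 3.38, 3.67 and 2.65 on day 35. Every later library lay above every day 3 library. The log2 rise was 0.58 ± 0.19 on day 7 (limma, adjusted p = 0.0319) and 1.37 ± 0.19 on day 35 (adjusted p = 2.08e-05). The day 7 call was lost without day 3 replicate 1 or 2 or day 7 replicate 1 or 3 (adjusted p 0.0554 to 0.151), and the day 14 call without day 3 replicate 1 or day 14 replicate 1 (0.0597 and 0.0547).

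Wnt16, a ligand of cortical bone, dipped and then exceeded its start. It had 0.976, 1.81 and 1.12 RPKM on day 3, 0.416, 0.409 and 0.238 on day 7, 1.07, 0.833 and 1.15 on day 14, 1.60, 2.58 and 1.79 on day 21, 2.47, 2.08 and 2.64 on day 28, and 1.41, 2.08 and 1.77 on day 35. It fell by 1.05 ± 0.19 on the log2 scale on day 7 (limma, adjusted p = 0.000674) and rose by 0.71 ± 0.19 on day 28 (adjusted p = 0.00631). On day 21 the log2 difference of 0.48 was called with the replicate number as a block (adjusted p = 0.0432) and not without it (0.0566). Wnt5a, the main ligand of Ror2, stayed between 0.979 and 2.51 RPKM in all 18 libraries and was called on no day.

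Of the R-spondins, Rspo3 rose and Rspo2 varied between replicates. Rspo3 had 10.6, 12.9 and 15.7 RPKM on day 3, 19.4, 24.0 and 23.1 on day 7, 12.9, 25.3 and 16.4 on day 14, 28.8, 32.5 and 32.4 on day 21, 30.8, 21.7 and 19.0 on day 28, and 19.5, 23.3 and 21.3 on day 35. Apart from day 14, the later libraries lay above those of day 3. Its log2 change was largest on day 21, 1.24 ± 0.22 (limma, adjusted p = 0.000205), and stood at 0.70 ± 0.22 on day 35 (adjusted p = 0.0115). On day 35 the call was lost without day 3 replicate 1 (adjusted p = 0.0624), and on RPKM as listed the direction turned (-0.185, adjusted p = 0.648). The day 7 call failed when day 3 replicate 1 (0.0776) or day 7 replicate 2 (0.054) was left out.

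Rspo2 had 3.37, 7.00 and 7.25 RPKM on day 3, 1.70, 5.04 and 4.89 on day 7, 1.22, 3.36 and 2.34 on day 14, 2.06, 8.40 and 9.89 on day 21, 3.99, 7.55 and 6.11 on day 28, and 1.52, 2.76 and 2.65 on day 35. Replicate 1 was the lowest library on each of the 6 days. Replicate numbers paired the untreated libraries. With the number as a block Rspo2 was called lower on day 7 (log2 change -0.59, limma, adjusted p = 0.0393), day 14 (-1.19, adjusted p = 0.000358) and day 35 (-1.14, adjusted p = 0.000299). Without the block it was called on none of these days (0.401, 0.0702 and 0.0619). With the sequencing run as the term it was called on day 7 (-0.61, limma, adjusted p = 0.0452) and day 14 (-1.23, 0.00258). On day 35 it was not called, but there replicates 2 and 3 made up a run of their own. The term left replicate 1 alone to set the day 35 level, so that fit cannot decide a day 35 call.

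Of 6 Frizzled receptors tested, Fzd1, Fzd2, Fzd5 and Fzd9 were called higher on later days. Fzd1 had the highest RPKM of all members, with 32.1, 28.9 and 31.1 on day 3, 55.1, 47.5 and 45.7 on day 7, 82.5, 63.2 and 75.1 on day 14, 88.0, 86.1 and 82.3 on day 21, 98.1, 78.7 and 83.2 on day 28, and 67.3, 55.8 and 68.8 on day 35. Fzd2 had 10.8, 10.4 and 9.87 RPKM on day 3, 23.7, 20.7 and 21.0 on day 7, 26.8, 21.1 and 23.9 on day 14, 27.8, 30.1 and 27.4 on day 21, 25.0, 19.3 and 21.5 on day 28, and 17.5, 15.2 and 18.1 on day 35. For both, every later library exceeded every day 3 library, and every day 35 library was below every day 21 library. Fzd1 was higher by 1.48 ± 0.13 log2 units on day 28 (limma, adjusted p = 1.27e-07) and by 1.04 ± 0.13 on day 35 (adjusted p = 3.78e-06). Fzd2 was higher by 1.41 ± 0.12 on day 21 (limma, adjusted p = 1.81e-07) and by 0.68 ± 0.12 on day 35 (adjusted p = 0.000178). On RPKM as listed, where the median of all genes fell by 0.688 at day 35, the day 35 values were 0.136 for Fzd1 (adjusted p = 0.648) and -0.2 for Fzd2 (0.484), neither called.

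Fzd5 had 2.10, 1.59 and 1.97 RPKM on day 3, 3.29, 3.15 and 3.29 on day 7, 2.80, 2.39 and 2.61 on day 14, 3.58, 3.25 and 3.09 on day 21, 6.49, 6.59 and 6.72 on day 28, and 10.9, 10.3 and 8.95 on day 35. Its day 35 change was the largest of the 15, 2.14 ± 0.12 (limma, adjusted p = 9.02e-10). Its smaller day 14 change of 0.38 failed the test when day 3 replicate 2 (adjusted p = 0.104) or the first library of day 14 (0.0654) was left out. Fzd9 was at or under 0.301 RPKM in every day 3 library and reached 1.45, 1.58 and 1.48 on day 28 and 1.08, 0.90 and 1.90 on day 35, after 0.573, 1.26 and 0.932 on day 21. Fzd9 passed the filter through those 3 days alone, so its log2 change of 1.60 ± 0.21 on day 28 is given as a description. Fzd7 and Fzd8 held 4.56 to 11.3 and 11.1 to 18.1 RPKM and were called on no day. With the replicate block Fzd7 was called lower on day 35 (-0.392, limma, adjusted p = 0.00435). It was not with the sequencing run as the term, a fit in which replicate 1 alone set the day 35 level. It had 8.32, 4.56 and 4.87 RPKM then and 9.30, 6.78 and 7.09 on day 3.

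Lrp6, the co-receptor for canonical Wnts, rose and then fell back. It had 3.87, 4.14 and 4.06 RPKM on day 3, 5.55, 5.66 and 5.05 on day 7, 7.04, 8.99 and 7.88 on day 14, 6.55, 6.71 and 6.49 on day 21, 4.98, 4.19 and 4.20 on day 28, and 2.74, 3.22 and 3.54 on day 35. The log2 change was 0.90 ± 0.12 on day 14 (limma, adjusted p = 2.6e-05) and -0.31 ± 0.12 on day 35 (adjusted p = 0.0404). The calls on the outer days were weak: that of day 7 was lost without any of the day 3 libraries or day 7 replicate 1 or 2 (adjusted p 0.0505 to 0.0773), and that of day 35 without any of the day 3 libraries or day 35 replicate 1 or 2 (0.0546 to 0.175). Ror2, the receptor for Wnt5a, held 1.61 to 5.40 RPKM. On day 35 its log2 difference of -0.561 was called with the replicate block (limma, adjusted p = 0.00147) and not without it (0.0548). It was not called with the sequencing run as the term, where replicate 1 alone set the day 35 level.

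Tcf7 fell early and was at its highest on day 35. It had 0.721, 0.82 and 0.753 RPKM on day 3, 0.466, 0.151 and 0.245 on day 7, 0.156, 0.217 and 0.581 on day 14, 0.268, 0.555 and 0.221 on day 21, 0.621, 0.865 and 0.866 on day 28, and 1.97, 1.76 and 1.34 on day 35. All libraries of days 7, 14 and 21 lay below, and all of day 35 above, those of day 3. On the log2(RPKM + 0.5) scale, which understates changes of such low genes, it fell by 0.70 ± 0.21 on day 7 (limma, adjusted p = 0.0186) with a log2 change of 0.78 ± 0.21 on day 35. Only the 3 day 35 libraries reached 1 RPKM, so Tcf7 was tested through the day on which it was high, the day 35 change is a description, and without any day 35 library the gene was not tested. Each of the falls lost its call without some single library, on day 7 without day 3 replicate 2 or 3 or day 7 replicate 2 or 3, on day 14 without day 3 replicate 2 or 3 or day 14 replicate 1 or 2, and on day 21 without any of the day 3 libraries or day 21 replicate 1 or 3 (adjusted p 0.0531 to 0.112).

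The other 30 members stayed under the filter. Axin2 had 0.277, 0.40 and 0.50 RPKM on day 3, 0.770, 0.601 and 0.533 on day 7, 0.805, 0.660 and 0.839 on day 14, 0.775, 0.487 and 0.777 on day 21, 1.52, 0.591 and 0.860 on day 28, and 0.687, 0.401 and 0.485 on day 35. Lef1 had 0.172, 0.157 and 0.479 RPKM on day 3, 0.102, 0.144 and 0.0623 on day 7, 0.357, 0.498 and 0.341 on day 14, 0.205, 0.667 and 0.716 on day 21, 0.256, 0.809 and 0.441 on day 28, and 0.155, 0.353 and 0.599 on day 35. Rspo4, Wnt1, Wnt3, Wnt3a, Wnt8b and Wnt9b were listed at 0 in all 18 libraries. Fzd10, Wnt6 and Wnt8a were above 0 in 1 library each. Fzd3, Lrp5, Rspo1, Wnt10a, Wnt2, Wnt4, Wnt7a, Wnt7b, Wnt9a and Ror1 stayed at or under 0.445 RPKM. Fzd4, Fzd6, Lgr4, Lgr5, Lgr6, Lrp4, Ryk, Wnt11 and Wnt2b peaked between 0.635 and 1.08 RPKM.

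Fitted without the filter, some of these low members were called too, at levels where the depth is unknown. Ryk had 0.845, 0.831 and 0.978 RPKM on day 3 and 0.140, 0.189 and 0.174 on day 35, a log2 change of -1.05 (limma without the filter, adjusted p = 1.78e-06). Wnt11 had 0.309, 0.351 and 0.681 RPKM on day 3 and was listed at 0 in all day 35 libraries (adjusted p = 3.67e-05). Fzd6 and Lgr4 were also lower on all of the 5 later days, by 0.686 and 0.703 on day 35 (adjusted p = 0.00128 and 0.00578). Lgr6 had 0.0707, 0.206 and 0.0522 RPKM on day 3 and 1.04, 0.725 and 0.879 on day 35, a change of 1.18 (adjusted p = 6.68e-06). Axin2 was called only on day 28 in that fit (0.70, adjusted p = 0.0151).

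In the hormone experiment 41 members were tested (edgeR quasi-likelihood, 20055 genes) and Wnt1, Wnt10a, Wnt3a and Wnt8a were not, with 60, 83, 36 and 55 counts over all 12 libraries. Per kilobase of exon, the highest members in vehicle cells at day 35 were Fzd1 at 109 ± 19.9 CPM (SD, n = 3), Lrp6 at 54.2 ± 7.99, Lrp4 at 42.4 ± 1.98 and Wnt5a at 38.2 ± 3.15. In vehicle cells at day 3 they were Lrp6 at 64.5 ± 3.54 and Fzd1 at 63.4 ± 11.5, which lay within each other's spread, then Rspo3 at 23.5 ± 6.41 and Wnt5a at 22.9 ± 1.89, which did too. Lrp5, Lrp4 and Lgr4 thus ranked among the higher members here, while in untreated cells they stayed at or under 1.08 RPKM, and this difference between the experiments was not tested. Fzd5, Fzd6, Ryk and Wnt7b have several rows for their symbol in the files, and so does Lrp4. Among symbols with at least 2 RPKM in untreated cells on day 3, 44% of those with several rows had under 1 CPM in vehicle at day 3, against 3.23% of those with 1 row, so the low counts of these 4 genes are uncertain.

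From day 3 to day 35 in vehicle cells 15 of the 41 members were called (edgeR), 11 up and 4 down, beside 29.9% of all genes (15.5% higher and 14.5% lower), with a median log2 change of 0.47 over the members and 0.175 over all genes. All 5 called ligands rose, while the called R-spondin and Ror receptor fell. Among ligands DESeq2 also called Wnt2 lower (-1.97, adjusted p = 0.0357) and Wnt7b higher (3.7, 0.00263), neither of them called in edgeR. Wnt5b had 44.9, 49.7 and 59.4 CPM in vehicle cells at day 35, against 8.46, 10.7 and 6.03 at day 3 (log2 change 2.61 ± 0.23, adjusted p = 5.47e-07). Wnt9a, expressed in joint-forming tissue, had 12.3, 9.42 and 12.3 CPM at day 35, against 1.68, 1.74 and 1.26 at day 3 (2.86 ± 0.31, adjusted p = 5.26e-06). Wnt10b had 32.9, 28.2 and 25.6 CPM at day 35, against 9.59, 15.2 and 9.43 at day 3 (1.34 ± 0.28, adjusted p = 0.00161). For all 3 the groups did not overlap.

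Wnt4 had 91, 110 and 82 counts in vehicle cells at day 35, against 15, 0 and 0 at day 3, where the olfactory background would give 7.58 counts in all (log2 change 4.75 ± 1.38, edgeR, adjusted p = 0.0165). It passed the filter through the day 35 groups. The call was lost without vehicle day 3 replicate 3 (adjusted p = 0.0526) or vehicle day 35 replicate 2 (0.0565). Wnt5a averaged 269 ± 22.1 CPM at day 35 and 161 ± 13.3 at day 3 (SD, n = 3 each), a log2 rise of 0.74 ± 0.15 (edgeR, adjusted p = 0.00112).

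Among receptors, Lrp4, which binds the Wnt inhibitor sclerostin, had 318, 347 and 344 CPM in vehicle cells at day 35, against 82.8, 89.9 and 80.1 at day 3 (2.00 ± 0.14, edgeR, adjusted p = 4.18e-08). Fzd3, a planar polarity receptor, had 7.16, 6.93 and 4.86 CPM at day 35, against 1.81, 2.17 and 2.22 at day 3 (1.61 ± 0.30, adjusted p = 0.000749). Lgr6 had 6.70, 4.29 and 3.51 CPM at day 35, against 0.220, 1.44 and 0.367 at day 3 (2.83 ± 0.63, adjusted p = 0.00301). No library of these 3 receptors at day 35 fell to the range of day 3.

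Fzd1 averaged 459 ± 83.5 CPM in vehicle cells at day 35 and 266 ± 48.1 at day 3 (0.79 ± 0.17, edgeR, adjusted p = 0.00195). Ror2 averaged 25.2 ± 4.20 CPM at day 35 and 52.9 ± 14.8 at day 3 (-1.07 ± 0.21, adjusted p = 0.00107). Fzd4 and Fzd7 were also called lower, by 0.81 and 0.77 on the log2 scale (adjusted p = 0.0303 and 0.0244), but their groups overlapped. Both calls were lost without vehicle day 3 replicate 2 or 3 or vehicle day 35 replicate 2 or 3 (adjusted p 0.0517 to 0.14).

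Rspo2 had 14.2, 9.53 and 8.91 CPM in vehicle cells at day 35, against 23.9, 29.8 and 25.1 at day 3 (-1.27 ± 0.23, edgeR, adjusted p = 0.00068). Tcf7 had 34.6, 18.3 and 18.6 CPM at day 35, against 1.41, 2.89 and 4.22 at day 3 (3.07 ± 0.43, adjusted p = 5.32e-05). Axin2 had 9.88, 6.89 and 6.91 CPM at day 35, against 3.44, 4.26 and 2.98 at day 3 (1.15 ± 0.24, adjusted p = 0.00183). Groups did not overlap for any of them. Lef1 had 1.17, 0.505 and 1.10 CPM at day 35, against 0.415, 0 and 0.321 at day 3, and was not called (adjusted p = 0.186).

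Day 35 could be set against day 3 in both experiments for 15 members, and the libraries are separate. Wnt10b, Wnt5b and Fzd1 were called higher in both. Tcf7 was too, but entered the untreated test only through its day 35 libraries. With it, the 4 were 4 of 9 called in untreated cells and 4 of 8 in vehicle cells. Over the 9079 genes tested in both experiments, calls in the same direction in both made up 55.1% of those in untreated cells and 69.1% of those in vehicle cells. The sign was the same in both for 11 of the 15 members. Fzd2, called higher in untreated cells (0.68), had 31.8, 27.6 and 29.3 CPM in vehicle at day 35, against 39.6, 34.2 and 34.7 at day 3. Its groups did not overlap, and the fall was not called (-0.29 ± 0.16, edgeR, adjusted p = 0.185). Wnt5a, at -0.03 in untreated cells, was called higher in vehicle cells (0.74). With the replicate block in the untreated fit, Rspo2, Ror2 and Fzd7 were called lower in both as well. With the sequencing run as the term instead, none of them was called in untreated cells on day 35. That fit left replicate 1 alone to set the day 35 level, so it cannot decide these calls. Rspo3 had a log2 difference of 0.70 at day 35 in untreated cells, which quantile normalization took to 0.413 without a call (limma, adjusted p = 0.106). In vehicle cells the difference was -0.50 ± 0.18, not called in edgeR (adjusted p = 0.0534) but called by DESeq2 (-0.485, adjusted p = 0.0329).

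**Figure D2:**
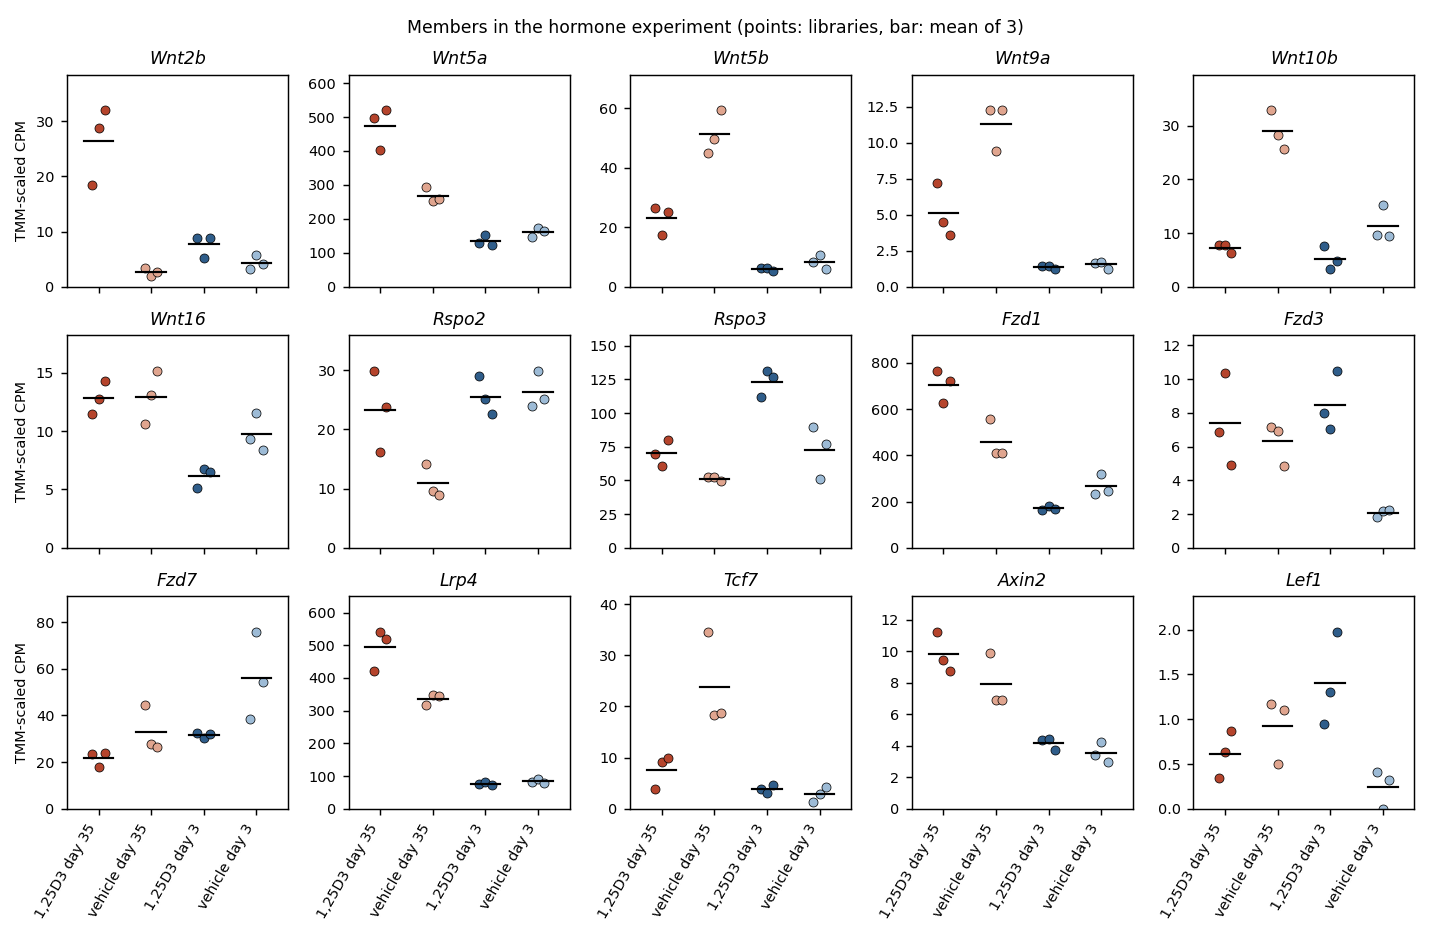
TMM-scaled CPM of 15 members in each library of the hormone experiment, by group, with a bar at the mean of 3 libraries. Wnt2b in 1,25D3 cells at day 35 lay at 18.4 to 32.0 CPM, above every library of the other 3 groups.

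The 24 h of 1,25D3 at day 35 changed 9 of the 41 members (edgeR), 5 up and 4 down, which is 22%, beside 4.56% of all genes (2.41% higher and 2.14% lower). The median log2 change was 0.05 over the members and 0.02 over all genes. Wnt2b rose most, Wnt5a, Rspo2, Lrp4 and Fzd1 rose, and Wnt10b, Wnt5b, Wnt9a and Tcf7 fell.

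Wnt2b, a ligand of the beta-catenin branch, had 18.4, 28.8 and 32.0 CPM in 1,25D3 cells at day 35, against 3.39, 2.02 and 2.74 in vehicle (log2 change 3.28 ± 0.32, edgeR, adjusted p = 1.49e-05). The lowest hormone library was over 5 times the highest vehicle library. Wnt5a had 497, 404 and 521 CPM in 1,25D3 cells, against 294, 253 and 259 in vehicle (0.82 ± 0.15, adjusted p = 0.00277). Both calls stood without any 1 of the 6 libraries, as did those of Wnt10b, Wnt5b and Rspo2.

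Wnt10b had 7.79, 7.82 and 6.31 CPM in 1,25D3 cells at day 35, against 32.9, 28.2 and 25.6 in vehicle (-1.98 ± 0.28, edgeR, adjusted p = 0.000456). Wnt5b had 26.5, 17.4 and 25.3 CPM in 1,25D3 cells, against 44.9, 49.7 and 59.4 in vehicle (-1.15 ± 0.22, adjusted p = 0.00477). Wnt9a had 7.24, 4.49 and 3.58 CPM in 1,25D3 cells, against 12.3, 9.42 and 12.3 in vehicle (-1.15 ± 0.29, adjusted p = 0.0365). The groups of all 3 ligands were apart. For Wnt9a the call was lost without any of the vehicle libraries or 1,25D3 replicate 2 or 3 (adjusted p 0.0911 to 0.186).

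Rspo2 had 29.9, 16.3 and 23.7 CPM in 1,25D3 cells at day 35, against 14.2, 9.53 and 8.91 in vehicle (1.10 ± 0.23, edgeR, adjusted p = 0.0113). Lrp4 had 421, 541 and 518 CPM in 1,25D3 cells, against 318, 347 and 344 in vehicle (0.55 ± 0.13, adjusted p = 0.0251). Fzd1 had 765, 624 and 722 CPM in 1,25D3 cells, against 556, 410 and 412 in vehicle (0.62 ± 0.17, adjusted p = 0.0474). All hormone libraries of these 3 genes were above all vehicle libraries. The Lrp4 call was lost without any of the vehicle libraries or 1,25D3 replicate 2 or 3 (adjusted p 0.0639 to 0.101), and the Fzd1 call without vehicle replicate 2 or 3 or 1,25D3 replicate 1 or 3 (0.104 to 0.166).

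Tcf7 had 3.93, 9.10 and 9.87 CPM in 1,25D3 cells at day 35, against 34.6, 18.3 and 18.6 in vehicle (-1.65 ± 0.40, edgeR, adjusted p = 0.0267). The groups did not overlap, but vehicle replicate 1 stood well above the other 2, and the call was lost without vehicle replicate 1 or 2 or any of the 1,25D3 libraries (adjusted p 0.0506 to 0.149). Axin2 had 11.2, 9.43 and 8.77 CPM in 1,25D3 cells, against 9.88, 6.89 and 6.91 in vehicle, and Lef1 had 0.343, 0.637 and 0.869 CPM, against 1.17, 0.505 and 1.10. Their groups overlapped and neither was called (adjusted p = 0.649 and 0.863).

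Of the 32 members not called at day 35, Fzd8 was nearest, with 75.4, 72.3 and 86.0 CPM in 1,25D3 cells, against 41.3, 59.9 and 46.4 in vehicle (0.66 ± 0.19, edgeR, adjusted p = 0.0588). It was called by DESeq2 (0.70, adjusted p = 0.00995). Rspo3, Lgr4, Fzd2 and Fzd7 had groups that did not overlap, with log2 differences of 0.45, -0.46, -0.39 and -0.60 (adjusted p = 0.252, 0.20, 0.258 and 0.246). Wnt4 had 40, 28 and 46 counts in 1,25D3 cells, against 91, 110 and 82 in vehicle, and Wnt7b had 9, 5 and 1, against 74, 18 and 30 (adjusted p = 0.543 and 0.218). Fzd9 and Wnt11, at or under 1.19 CPM on average in both groups, also had groups apart without a call.

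The stretches just upstream of the start sites of 3 genes that moved strongly at day 35 are shown so that their letters can be read beside these values. They are from RefSeq (GRCm38.p6), 250 bases each, 5′ to 3′ on the gene's strand. All 3 genes are on the minus strand, Wnt2b at chr3:104961710-104961959, Wnt10b at chr15:98778151-98778400 and Tcf7, for the more downstream of its 2 listed starts, at chr11:52282596-52282845. Capitals mark the words searched on both strands, CTTTGA of TCF and LEF factors and, of the vitamin D receptor's hexamers, AGGTCA as well as the variants GGTTCA and also AGTTCA.
Wnt2b: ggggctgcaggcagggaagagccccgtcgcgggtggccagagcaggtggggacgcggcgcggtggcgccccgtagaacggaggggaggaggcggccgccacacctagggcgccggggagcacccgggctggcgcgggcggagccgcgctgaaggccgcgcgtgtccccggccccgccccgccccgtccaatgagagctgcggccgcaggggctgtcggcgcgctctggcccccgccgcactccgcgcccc
Wnt10b: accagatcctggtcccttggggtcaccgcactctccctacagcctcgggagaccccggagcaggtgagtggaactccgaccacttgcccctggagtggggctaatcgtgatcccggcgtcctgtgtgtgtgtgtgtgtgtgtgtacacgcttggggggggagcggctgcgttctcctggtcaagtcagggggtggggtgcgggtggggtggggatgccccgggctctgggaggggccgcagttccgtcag
Tcf7: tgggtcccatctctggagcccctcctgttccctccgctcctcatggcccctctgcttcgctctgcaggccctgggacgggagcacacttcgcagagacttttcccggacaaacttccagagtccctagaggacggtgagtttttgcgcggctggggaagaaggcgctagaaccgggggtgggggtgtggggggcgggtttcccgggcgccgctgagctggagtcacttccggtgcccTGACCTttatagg

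Of the 3 stretches shown, that of Tcf7 held a searched word, AGGTCA on the opposite strand, from 13 bases upstream of the start, and the stretch of its other start, at chr11:52283015-52283264, held none. GGGTCA, which differs from AGGTCA in its first letter, was not searched, and the Wnt10b stretch holds it in lower case. Of 32841 such stretches over all genes 13.8% held CTTTGA and 30.7% a searched receptor hexamer. Of the 38 stretches that RefSeq gave for 31 members, 13.2% held CTTTGA and 21.1% a searched receptor hexamer. A match is only a run of letters, and no match speaks only of these 250 bases.

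**Figure D3:**
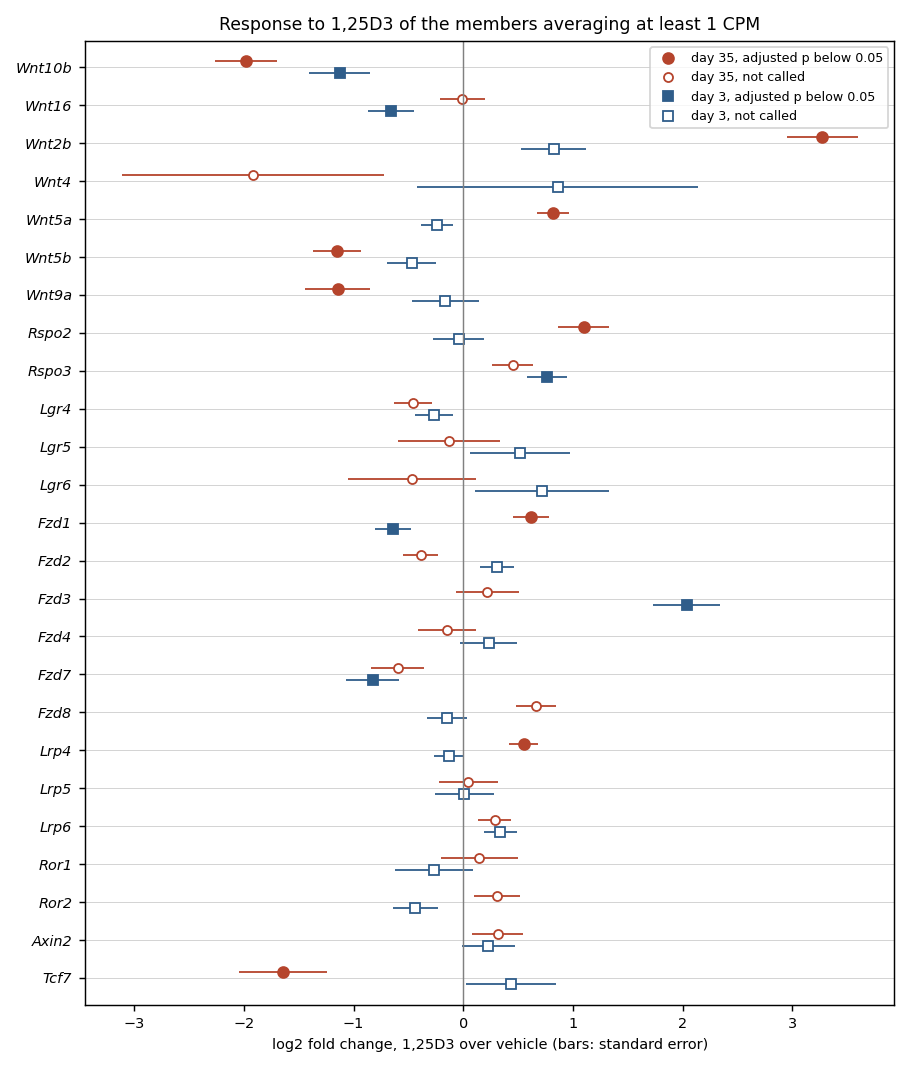
Log2 fold change of 1,25D3 over vehicle at day 35 (circles) and day 3 (squares) for the 25 tested members that averaged at least 1 CPM, with bars of 1 standard error and filled symbols where the adjusted p was below 0.05. Fzd1 was higher than vehicle at day 35 and lower at day 3.

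At day 3, 1,25D3 changed 6 of the 41 members (edgeR), 2 up and 4 down, which is 14.6%, beside 20.5% of all genes (11.4% higher and 9.09% lower). The median log2 change was 0.27 over the members and 0.261 over all genes. DESeq2 called 15, 10 up and 5 down, beside 22% of all genes higher and 10% lower, so the balance of directions depended on the tool. Fzd3 had 7.96, 7.02 and 10.5 CPM in 1,25D3 cells at day 3, against 1.81, 2.17 and 2.22 in vehicle (2.04 ± 0.30, adjusted p = 0.000398). Its 856 counts over the 3 hormone libraries were 4.45 times the olfactory background for its length, and with that background subtracted the change was 1.92 (adjusted p = 0.00103). Rspo3 had 112, 131 and 127 CPM in 1,25D3 cells, against 89.7, 50.9 and 77.0 in vehicle (0.77 ± 0.18, adjusted p = 0.0117). Both calls stood without any 1 of the 6 libraries.

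Wnt10b had 7.58, 3.26 and 4.89 CPM in 1,25D3 cells at day 3, against 9.59, 15.2 and 9.43 in vehicle (-1.13 ± 0.28, edgeR, adjusted p = 0.0141). Wnt16 had 5.14, 6.80 and 6.53 CPM in 1,25D3 cells, against 9.29, 11.6 and 8.39 in vehicle (-0.66 ± 0.21, adjusted p = 0.0408). The hormone libraries of both lay below the vehicle libraries. The Wnt10b call was lost without 1,25D3 replicate 2 or 3 (adjusted p = 0.0556 and 0.0565), and the Wnt16 call without vehicle replicate 2 or any of the 1,25D3 libraries (0.069 to 0.118).

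Fzd1 had 162, 182 and 168 CPM in 1,25D3 cells at day 3, against 233, 321 and 244 in vehicle (-0.64 ± 0.17, edgeR, adjusted p = 0.0174). Fzd7 had 32.7, 30.5 and 32.2 CPM in 1,25D3 cells, against 38.5, 75.9 and 54.5 in vehicle (-0.83 ± 0.24, adjusted p = 0.0308). The groups were apart, with vehicle replicate 2 the highest library of both genes. The Fzd1 call was lost without vehicle replicate 2 or 1,25D3 replicate 1 or 3 (adjusted p 0.0524 to 0.0665), and the Fzd7 call without vehicle replicate 2 or any of the 1,25D3 libraries (0.06 to 0.102).

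Wnt2b had 8.91, 5.32 and 8.87 CPM in 1,25D3 cells at day 3, against 3.17, 5.75 and 4.08 in vehicle, with overlap and no call in edgeR (0.83 ± 0.30, adjusted p = 0.0585). DESeq2 called it (0.91, adjusted p = 0.0249). Wnt11 had 3, 2 and 22 counts in 1,25D3 cells, beside a background of 54.7 in all, against 51, 90 and 20 in vehicle. It was not called in edgeR (-2.26 ± 0.96, adjusted p = 0.0967). DESeq2 called it lower (-2.18, adjusted p = 0.0499), as did edgeR with the background subtracted (-8.41, 0.00232), which left almost no hormone counts. Axin2 had 4.37, 4.42 and 3.73 CPM in 1,25D3 cells, against 3.44, 4.26 and 2.98 in vehicle, and Tcf7 had 3.88, 3.03 and 4.64, against 1.41, 2.89 and 4.22. Lef1 had 0.951, 1.30 and 1.98 CPM in 1,25D3 cells, against 0.415, 0 and 0.321 in vehicle. None of these 3 was called in edgeR (adjusted p = 0.49, 0.437 and 0.0943). The Lef1 groups did not overlap, and DESeq2 called it (2.61, adjusted p = 0.017), while edgeR with the olfactory background subtracted gave 2.2 (0.232). Lrp6 had 795, 759 and 734 CPM in 1,25D3 cells, against 599, 574 and 640.1 in vehicle, a log2 difference of 0.34 ± 0.15 without overlap. It was not called in edgeR with TMM factors (adjusted p = 0.114), and was called with RLE factors (0.414, adjusted p = 0.036), by DESeq2 (0.414, 0.00219) and with background subtracted (0.452, 0.0207).

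**Figure D4:**
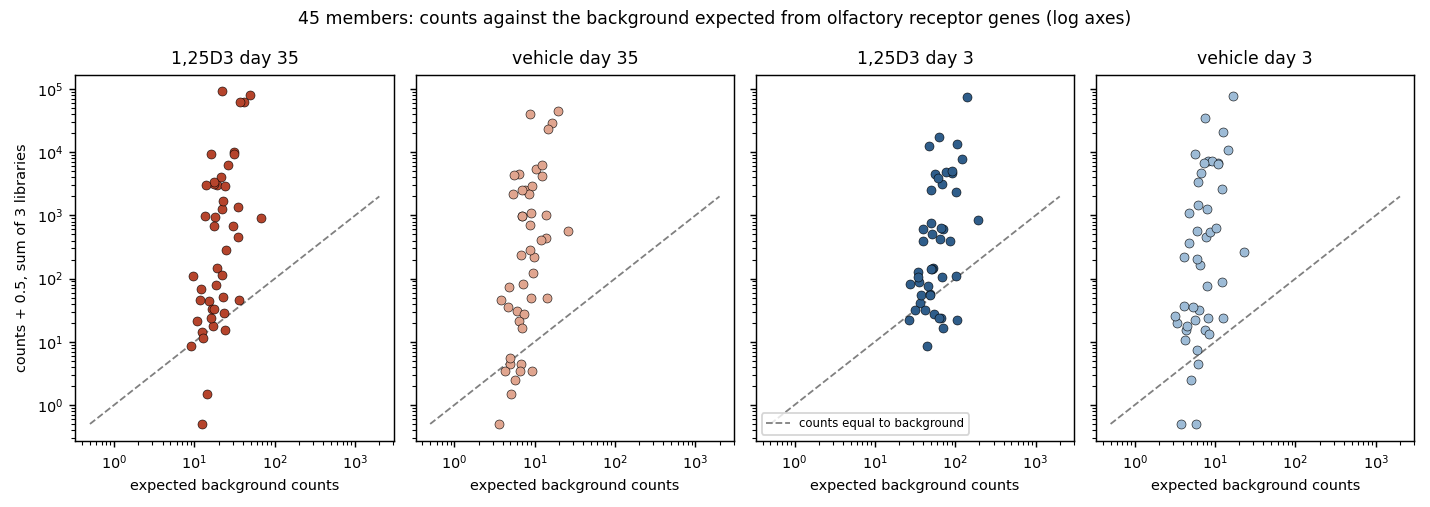
Counts of each of the 45 members plus 0.5, summed over the 3 libraries of a group, against the counts that the olfactory receptor genes would give for its exon length, on log axes, with a dashed line where both are equal. In 1,25D3 cells at day 3 the background is the highest of the 4 groups and more members lie near the line.

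Several low members had more counts in 1,25D3 cells at day 3 than in vehicle, at levels near the olfactory background. Wnt7a had 19, 13 and 23 counts in 1,25D3 cells, against 0 in each vehicle library, where the background would give 48 in all. Wnt6 had 14, 4 and 13 counts, against 0 in each vehicle library, beside a background of 31.3. Wnt8b had 22, 61 and 59, against 0, 0 and 4, beside a background of 51.1. The first 2 are thus 1.15 and 0.99 times the background and Wnt8b is 2.78 times it. Wnt9b, Fzd10 and Rspo4 had 105, 57 and 87 counts in all, or 1.54, 1.16 and 2.43 times their background. None of these 6 was called in edgeR with all libraries and no further term (adjusted p 0.0538 to 0.338). DESeq2 called Wnt7a and Wnt8b (adjusted p = 0.0342 and 0.00652), and edgeR called Wnt8b without vehicle replicate 3 (0.0478). Both genes passed the filter through the 1,25D3 libraries at day 3, in which they were high, so these changes are a description. A count of 0 in a library allows up to 3 counts, and such limits cover counting error only.

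The response to 1,25D3 at day 35 minus that at day 3 differed from 0 for 7 of the 41 members (edgeR interaction), 5 up and 2 down, beside 7.08% of all genes (4.14% higher and 2.94% lower). The log2 difference was 2.45 ± 0.42 for Wnt2b (adjusted p = 0.00226), 1.26 ± 0.23 for Fzd1 (0.00376) and 1.06 ± 0.20 for Wnt5a (0.00485). Those 3 calls stood without any 1 of the 12 libraries. Fzd1 was called in opposite directions at the 2 days. Wnt5a, with 129.9, 154 and 124.6 CPM in 1,25D3 cells and 147, 173 and 163 in vehicle cells at day 3, was not called there (-0.24 ± 0.14, adjusted p = 0.225).

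The other 4 differences lost their calls when some single libraries were left out. They were -1.82 ± 0.42 for Fzd3 (edgeR, adjusted p = 0.0152), -2.08 ± 0.57 for Tcf7 (0.0397), 0.68 ± 0.19 for Lrp4 (0.0413) and 1.14 ± 0.33 for Rspo2 (0.049). Fzd3 lost its call without vehicle replicate 2 or 1,25D3 replicate 1 or 3 at day 35 (adjusted p 0.0507 to 0.0675). Tcf7 lost it when any library but vehicle day 3 replicate 3 or 1,25D3 day 35 replicate 2 was left out (0.0525 to 0.098). Lrp4 lost it without vehicle replicate 2 or any 1,25D3 library at day 3, or vehicle replicate 1 at day 35 (0.0629 to 0.118). Rspo2 lost it without vehicle replicate 2 or any 1,25D3 library at day 3, or vehicle replicate 2 or 3 or 1,25D3 replicate 1 at day 35 (0.0572 to 0.122). For Wnt10b, called lower at both days, the difference was -0.86 ± 0.39 and was not called (adjusted p = 0.20). That of Wnt11, a gene with few counts, was 4.13 ± 1.35 and not called in edgeR (adjusted p = 0.0793). It was called by DESeq2 (4.12, adjusted p = 0.0142) and by edgeR with the background subtracted (10.6, 0.00257).

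Other genes of the pathway, listed by role, moved as follows. Of 13 secreted Wnt inhibitors, 8 were tested in untreated cells and 4 rose and 1 fell on day 35, beside 28.1% of all genes higher and 27% lower. Wif1, which binds Wnts, and Dkk1, which binds Lrp6, were listed at 0 in all day 3 libraries and reached 2.82, 2.29 and 2.78 RPKM and 5.14, 4.42 and 4.24 RPKM on day 35. Both passed the filter only through late days, so these values are a description. All 13 were tested in vehicle cells, where 6 rose and 3 fell from day 3 to day 35, beside 15.5% of all genes higher and 14.5% lower. Wif1 had 15.1, 20.9 and 20.1 CPM at day 35, against 0, 0 and 0.0917 at day 3 (edgeR, adjusted p = 1.65e-08). It passed the filter here only through groups other than vehicle at day 3, so this change too is a description.

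Under 1,25D3 at day 35, 2 of the 13 inhibitors were called in edgeR, both higher, beside 2.41% of all genes higher and 2.14% lower. DESeq2 called 2 higher and 4 lower, beside 4.24% of all genes higher and 3.67% lower. The median log2 change was -0.11 over the list and 0.02 over all genes. Notum, an enzyme that removes the lipid of Wnts, had 24.1, 34.9 and 38.3 CPM in 1,25D3 cells, against 2.89, 2.85 and 3.35 in vehicle (3.42 ± 0.22, edgeR, adjusted p = 3.4e-07). Wif1 had 37.2, 69.8 and 65.4 CPM in 1,25D3 cells, against 15.1, 20.9 and 20.1 in vehicle (1.62 ± 0.33, adjusted p = 0.00784). At day 3, 4 rose and 3 fell, beside 11.4% of all genes higher and 9.09% lower. The risers Sfrp5, Wif1, Dkk1 and Sost were, however, at or under 1.73 CPM in every 1,25D3 library there.

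Of 14 Wnt target genes 12 were tested in the hormone experiment. Under 1,25D3 at day 35, 3 were called (edgeR), all lower, beside 2.41% of all genes higher and 2.14% lower. With DESeq2, 2 were called higher and 4 lower, beside 4.24% of all genes higher and 3.67% lower. The median log2 change was -0.59 over the list and 0.02 over all genes. Wisp1 had 315, 327 and 310.4 CPM in 1,25D3 cells, against 590, 601 and 548 in vehicle (-0.87 ± 0.12, edgeR, adjusted p = 0.000307). Tnfrsf11b, the osteoclast inhibitor osteoprotegerin, had 24.6, 16.6 and 20.8 CPM in 1,25D3 cells, against 92.1, 55.1 and 54.1 in vehicle (-1.70 ± 0.30, adjusted p = 0.00268). Nkd2, a Dishevelled antagonist, had 21.8, 23.7 and 24.8 CPM in 1,25D3 cells, against 58.7, 40.5 and 44.1 in vehicle (-1.03 ± 0.18, adjusted p = 0.00307).

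At day 3, 8 of the 12 target genes were called under 1,25D3, all lower, beside 9.09% of all genes lower and 11.4% higher, with a list median of -0.74 beside 0.261 over all genes. Jun had the smallest adjusted p, with 66.4, 73.5 and 66.0 CPM in 1,25D3 cells, against 268, 341 and 296 in vehicle (-2.14 ± 0.14, edgeR, adjusted p = 2.04e-07). From day 3 to day 35, 6 of the 12 rose and 4 fell in vehicle cells (all genes, 15.5% and 14.5%), and 5 of 12 rose and 6 fell in untreated cells (28.1% and 27%).

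Of 15 beta-catenin partners 14 were tested in the hormone experiment. Under 1,25D3 at day 35, 2 were called, both lower, beside 2.41% of all genes higher and 2.14% lower. The list median was -0.48. Tle4, a co-repressor of TCF factors, had 3.33, 3.58 and 2.65 CPM in 1,25D3 cells, against 9.36, 6.603 and 4.58 in vehicle (-1.11 ± 0.23, edgeR, adjusted p = 0.0103). Of 15 genes of the Dishevelled and destruction complex group 13 were tested. In edgeR 0 of them were called at day 35, beside 4.56% of all genes, with 1 at an unadjusted p below 0.05 and 1 by DESeq2. At day 3, 1 rose and 3 fell in edgeR, beside 11.4% of all genes higher and 9.09% lower. In untreated cells 12 of the 15 were tested, and 2 rose and 7 fell on day 35, beside 28.1% of all genes higher and 27% lower. Wls, which carries Wnts to the surface, had 347, 409.5 and 364 CPM in 1,25D3 cells at day 3, against 551, 519 and 557 in vehicle (-0.54 ± 0.17, edgeR, adjusted p = 0.0366). At day 35 it had 1048, 652 and 795 CPM in 1,25D3 cells, against 668, 553 and 593 in vehicle (0.46 ± 0.17, adjusted p = 0.172), and the response at day 35 minus that at day 3 was called higher (1.00 ± 0.23, adjusted p = 0.0175).

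Of 6 membrane regulators 4 were tested, and edgeR called 1 under 1,25D3 at day 35 and 2 at day 3, all lower. Among all genes it called 2.14% lower at day 35 and 9.09% at day 3. DESeq2 called 1 regulator higher and 1 lower at day 35, beside 4.24% of all genes higher and 3.67% lower. Kremen1, a Dkk receptor, was lower at both, with 67.8, 55.9 and 62.1 CPM in 1,25D3 cells at day 35, against 129, 99.1 and 110.4 in vehicle (-0.87 ± 0.18, edgeR, adjusted p = 0.0102). Of 17 planar polarity and calcium genes 14 were tested, and 2 were called at day 35, both higher, with 2 higher and 2 lower at day 3. Among all genes 2.41% were called higher at day 35, and 11.4% higher and 9.09% lower at day 3. Prickle1, a planar polarity component, had 76.6, 68.2 and 77.9 CPM in 1,25D3 cells at day 35, against 56.8, 40.5 and 41.9 in vehicle (0.68 ± 0.17, edgeR, adjusted p = 0.0332).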

How the data were processed

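RNA of IDG-SW3 cells was depleted of ribosomal RNA and sequenced as directional libraries, per the labels' protocols. The authors aligned reads with TopHat (version not given in the sources used here) to mm9, per the submitters' processing notes. The 18 untreated files hold RPKM as deposited. The 12 hormone files carry RPKM in their names but hold whole numbers, and the deposited values were read as counts. How they were counted is not given in the sources used here. Of a symbol's several rows the highest mean was kept for RPKM and the sum for counts.

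RPKM were divided by a median-of-ratios factor per library, without 5 rRNA symbols, and log2(RPKM + 0.5) was tested with limma 3.58.1 (trend) on 9621 genes with at least 1 RPKM in 3 libraries. Counts were tested with edgeR 4.0.16 (quasi-likelihood, TMM, filterByExpr) on 20055 genes, in R 4.3.3. All libraries of an experiment entered its fit, with 12 and 8 residual degrees of freedom. P-values were two-sided and were adjusted after Benjamini and Hochberg across every gene tested, with a threshold of 0.05. The scripts were tested on simulated data. Alternatives were DESeq2 1.42.0 and other scalings, pseudocounts, filters, a run or replicate term, background subtraction and leaving out each library. The background is the count per kilobase of 1083 odorant (olfactory) receptor genes, with exon lengths from GENCODE M21.

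Replicate numbers come from the labels. Same-numbered untreated libraries deviated together in all 45 pairs of days (correlation 0.107 to 0.593, median 0.268), so the numbers were taken to pair them. Sequencing runs in the file names put replicate 1 of every untreated day in run 230, but did not keep replicates 2 and 3 apart. Those 2 were in run 243 on day 3, in runs 243 and 247 on day 7 and in run 247 on days 14, 21 and 28. On day 35 they were in run 246, which held no other day. Run was thus partly confounded with day, and a run term left replicate 1 alone to set the day 35 level. Blocked values stand beside the results they change. The members and lists were chosen with earlier results of these data known. The genes named are all members, with values in each library for those called (the 10 largest where more) and for Axin2, Lef1 and Tcf7, and up to 3 genes of each other list.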

Additional observations from a re-analysis of the deposited data

Results flagged for a closer look

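The response to 1,25D3 (log2 change over vehicle) differed between day 35 and day 3 for 7 members by the edgeR interaction test. The differences, day 35 minus day 3, were 2.45 for Wnt2b, 1.26 for Fzd1, 1.06 for Wnt5a, 1.14 for Rspo2, 0.683 for Lrp4, -1.82 for Fzd3 and -2.08 for Tcf7. For Wnt2b the responses were 3.28 at day 35 and 0.83 at day 3, for Wnt5a 0.82 and -0.24, and for Fzd1 0.62 and -0.64. For Rspo2 they were 1.10 and -0.04, and for Lrp4 0.55 and -0.13. For Fzd3 they were 0.22 and 2.04, and for Tcf7 -1.65 and 0.44. The olfactory background and the adipocyte markers of replicate 3 were highest in the 1,25D3 libraries at day 3, which enter each difference. With the background subtracted, Wnt2b kept a difference of 2.53 (adjusted p = 0.00192) and Fzd1 of 1.21 (0.00141), and Lrp4 was no longer called (0.656, adjusted p = 0.0555).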

How the results depend on the processing

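Of 77 calls of single members, 838 results under alternatives kept direction and call, 118 lost the call and 2 turned round. On RPKM as listed, at day 35 Fzd2 was at -0.2 and Rspo3 at -0.185 (neither called) and Fzd8 at -0.751 (called, adjusted p = 0.0108), and 5 members were called at day 21. The same scaling ended the calls of Lrp6 and Wnt10b on day 7 (0.618 and -0.591), Fzd5 on days 14 and 21 (0.476 and 0.576), Lrp6 on day 21 (0.531), Rspo3 and Wnt16 on day 28 (0.477 and 0.435) and Fzd1 on day 35 (0.136). On RPKM as listed all genes at day 35 split into 559 higher and 5117 lower, against 2700 and 2597 after rescaling. A run term ended the calls of Fzd5 and Wnt5b on day 14 (limma, adjusted p = 0.0587 and 0.0506). It also ended that of Rspo3 on day 35, where the term left replicate 1 alone to set the day 35 level. Without the filter on low RPKM the calls were 15, 14, 14, 18 and 16 on days 7 to 35 and 20 over all days. Beside them 18.5%, 23.1%, 29.5%, 33.2% and 37% of all genes were called on those days, and 6896 of 18732 over all days. DESeq2 called 15 members under 1,25D3 at day 3, where edgeR called 6. Quantile normalization ended the call of Rspo3 on day 35 (0.413).

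Without 1 library each, members called ranged over 6 to 7 on day 7, 4 to 6 on day 14, 7 to 8 on day 21, 8 on day 28, 7 to 9 on day 35 and 9 to 11 over all untreated days. They ranged over 12 to 16 between vehicle groups, 3 to 8 under 1,25D3 at day 3 (3 without any of its hormone libraries), 5 to 7 at day 35 (5 without 1,25D3 replicate 3) and 4 to 13 for the difference (13 without 1,25D3 day 35 replicate 2, the library with the higher olfactory share, and 4 without 1,25D3 replicate 1 or 2 at day 3 or 1,25D3 replicate 1 at day 35).

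With the replicate block 10, 7, 9, 8 and 12 members were called on the untreated days and 13 over all. The block raised the share of all genes called too, to 42.9%, 48.4%, 56.7%, 60.7% and 64.2% on those days. Over all days it called 6948 of 9621 genes. In the hormone experiment same-numbered libraries shared only a number (18 pairs, correlation -0.197 to 0.522), and with the block 15 were called between vehicle groups, 8 at day 3, 8 at day 35 (Fzd1 lost, adjusted p = 0.0821) and 6 for the difference (Lrp4 lost, 0.0595). Beside these hormone counts 27.7%, 16.6%, 3.91% and 5.66% of all genes were called with the block, in the same order. At day 3 the block added Wnt7a and Wnt8b (edgeR, adjusted p = 0.0489 and 0.0492). Both had passed the filter through the 1,25D3 libraries of that day. RLE factors ended the calls of Wnt16 at day 3 and of Lrp4 for the difference (adjusted p = 0.0658 and 0.0586). Over all genes, 1,25D3 at day 3 gave 4102 calls, 6412 by DESeq2, 2352 with background subtracted and 1727 to 3833 without 1 library. At day 35 it gave 914, 1588 by DESeq2 and 589 without vehicle replicate 2. The difference gave 1420, 2715 by DESeq2, 925 without 1,25D3 day 3 replicate 3 and 4890 without 1,25D3 day 35 replicate 2. The cause of each change was not tested. Depth limits the low members, and for RPKM it is unknown.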
